A study of Mus musculus with 6 samples.

Results

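Levels of 9 transcripts that serve the marking and clearance of dying cells were read in mouse bone marrow-derived macrophages of 3 genotypes. The genes were taken by name from a table of 23337 gene symbols: C1qa, C1qb and C1qc, which encode the chains of complement C1q; C3 and Cfb, which encode later complement proteins; Mertk and Axl, which encode receptors of the TAM family; and Gas6 and Pros1, which encode the ligands of those receptors. All 9 passed the filter on low counts, as did 12923 genes in all. The macrophages had been grown from bone marrow for 7 days with M-CSF, a growth factor for this cell type, and then treated for 8 h with LPS from Escherichia coli at 100 ng/ml, an outer membrane lipid of bacteria that macrophages sense. The genotypes were a knockout of both liver X receptors (LXRdKO; the receptors are named LXRab in the labels), a Ch25h knockout (Ch25hKO) and wild type (WT), with 2 libraries each and C57BL/6 given as the strain throughout. Every library came from LPS-treated cells, so no value here shows a response to LPS. The alleles are not described in the sources used here, and neither is whether the libraries of a genotype came from separate animals or cultures, so p-values measure the spread between libraries, which may be technical.

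C1q is the recognition part of the classical complement pathway. It is built from A, B and C chains, and macrophages are a main source of it in the body. It binds immune complexes and the surface of dying cells. C3 is the central complement protein, whose fragments coat targets for uptake, and factor B, made from Cfb, is the protease of the alternative pathway that amplifies C3 cleavage. MERTK and AXL are receptor tyrosine kinases that do not bind a dying cell themselves: GAS6 and protein S, the product of Pros1, bridge them to phosphatidylserine on its surface. MERTK binds both ligands, while AXL binds GAS6. Liver X receptors are nuclear receptors activated by oxysterols, and Mertk is a known LXR-responsive gene of mouse macrophages. Ch25h encodes the enzyme that makes the oxysterol 25-hydroxycholesterol.

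The C1q genes lie side by side on the minus strand of chromosome 4, in 18.7 kb from 136880129 to 136898803 (GRCm38, GENCODE M21 coordinates). C1qb (ENSMUSG00000036905.8) is at 136880129 to 136886187, C1qc (ENSMUSG00000036896.5) at 136889804 to 136893065 and C1qa (ENSMUSG00000036887.5) at 136895917 to 136898803. Promoter sequences of RefSeq, 250 bases before to 50 after each start on GRCm38.p6, were found for 7 of the 9 genes, all except C1qa and Cfb. Those of C1qb and C1qc are shown because these neighbours rose by similar amounts in LXRdKO. Those of Mertk and Axl are shown because both rose in LXRdKO and both fell in Ch25hKO. Sequences run 5′ to 3′, and capitals mark every match to a motif searched on both strands.
C1qb (chr4:136886151-136886450, minus strand): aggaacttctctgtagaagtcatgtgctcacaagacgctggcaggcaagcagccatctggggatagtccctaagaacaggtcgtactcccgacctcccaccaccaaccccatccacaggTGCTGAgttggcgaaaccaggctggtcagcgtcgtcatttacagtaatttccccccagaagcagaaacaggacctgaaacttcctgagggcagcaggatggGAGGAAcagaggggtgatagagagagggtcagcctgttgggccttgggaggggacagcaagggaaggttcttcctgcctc
C1qc (chr4:136892865-136893164, minus strand): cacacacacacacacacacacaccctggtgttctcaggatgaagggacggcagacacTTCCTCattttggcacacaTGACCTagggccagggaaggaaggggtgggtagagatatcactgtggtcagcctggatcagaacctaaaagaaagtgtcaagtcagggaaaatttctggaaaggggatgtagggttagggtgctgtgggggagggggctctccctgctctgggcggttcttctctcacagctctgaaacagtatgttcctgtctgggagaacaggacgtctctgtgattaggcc
Mertk (chr2:128698665-128698964, plus strand): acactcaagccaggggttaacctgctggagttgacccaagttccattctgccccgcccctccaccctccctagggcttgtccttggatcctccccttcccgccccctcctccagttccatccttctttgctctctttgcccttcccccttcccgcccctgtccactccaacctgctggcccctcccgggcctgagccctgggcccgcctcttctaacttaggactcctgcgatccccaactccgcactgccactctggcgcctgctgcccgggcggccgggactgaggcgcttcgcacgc
Axl (chr7:25788684-25788983, minus strand): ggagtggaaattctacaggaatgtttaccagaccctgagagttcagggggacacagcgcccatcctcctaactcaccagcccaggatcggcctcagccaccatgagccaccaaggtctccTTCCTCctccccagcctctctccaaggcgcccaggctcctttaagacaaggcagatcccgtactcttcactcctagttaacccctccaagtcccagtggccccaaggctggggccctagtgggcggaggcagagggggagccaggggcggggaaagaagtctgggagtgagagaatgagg

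The first motif searched was AGGTCA, the hexamer of nuclear receptors. The next was the LXR direct repeat, 2 copies of that hexamer on 1 strand with any 4 bases between them, so that each repeat also counts as a hexamer match. The core of the interferon-stimulated response element was taken as 2 copies of GAAA with any 2 bases between them. The others were TGCTGA, a hexamer bound by some basic leucine zipper factors, and GAGGAA, a core bound by ETS factors. The direct repeat was in 0.0152% of 32817 RefSeq promoter windows of the same length, AGGTCA in 16.3%, the interferon core in 3.43%, TGCTGA in 19.5% and GAGGAA in 28.3%. The C1qb window held TGCTGA with its first base at -131 and GAGGAA at -30, counted from the start site. The C1qc window held AGGTCA on the other strand at -174 and GAGGAA on the other strand at -193. In the Axl window GAGGAA stood on the other strand at -130, and the Mertk window held none of the 5 motifs. Among the 3 windows not printed, that of C3 held AGGTCA at -243 and TGCTGA on the other strand at -182. GC content was 66.0% in the Mertk window and 60.3% in the Axl window, against 56.3% for C1qb and 53.3% for C1qc. These are letter matches in short windows and say nothing of binding.

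Values are given in CPM, read counts scaled to a common library size, so that a gene's level can be set side by side between libraries. Library totals ran from 41650513 to 45872964 counts. The targeted genes fitted the labels: LXRdKO kept 5.66% of the WT level of Nr1h3 and 2.6% of that of Nr1h2, the genes of LXRα and LXRβ, and Ch25hKO kept 1.62% of the WT level of Ch25h. Of the 10 macrophage markers read, all were tested, and their summed level was 19188 and 19071 CPM in LXRdKO, 15535 and 16259 CPM in Ch25hKO and 17176 and 15764 CPM in WT. Markers of other cells were low, with sums of 28.8 and 28.7 CPM in LXRdKO, 39.1 and 37.8 CPM in Ch25hKO and 32.9 and 29.8 CPM in WT for 10 stromal genes. Sums of the dendritic cell, neutrophil, B cell, and T and NK cell lists were at or below 55.2 CPM in every library. None of these markers was at 0 in all 6 libraries. Differences are log2 fold changes ± standard error, 2 libraries per group, and adjusted p-values are those of the quasi-likelihood test in edgeR, adjusted by Benjamini and Hochberg's method over the 12923 genes and called under 0.05. In bulk RNA, fewer cells of a type and less RNA per cell cannot be told apart.

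Per length, C1qb, C3, C1qc and Cfb stood above the TAM receptor and ligand genes in each genotype, while C1qa lay near Axl. In CPM per kb of exon, the order in LXRdKO was C1qb (1177 ± 0.793, SD, n = 2), C3 (447 ± 6.75), C1qc (389 ± 8.08) and Cfb (371 ± 5.39), then Axl (68.3 ± 1.31), C1qa (56.0 ± 0.482), Mertk (17.7 ± 1.13), Gas6 (10.6 ± 0.916) and Pros1 (6.83 ± 0.101). In Ch25hKO, Cfb stood second at 450 CPM per kb, ahead of C3 at 346 and C1qc at 278, and C1qa (52.9) stood above Axl (40.7). In WT the order was C1qb (792), Cfb (436), C3 (394), C1qc (243), Axl (58.4), C1qa (40.0), Mertk (11.3), Pros1 (8.42) and Gas6 (7.34). The libraries of neighbours in these orders did not overlap within any genotype, and the closest pair was Pros1 with 7.73 CPM per kb in its lower library and Gas6 with 7.64 in its higher one, both in WT. Lengths are merged exons of GENCODE M21, which may not be the models used in counting. For Cfb (ENSMUSG00000090231.10, chromosome 17, 34856374 to 34862518), 81.6% of the exon bases are shared with the read-through gene Gm20547 on the same strand, and the handling of such reads in counting is not stated. No other gene of the 9 shares exon bases with an annotated neighbour.

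**Figure D1:**
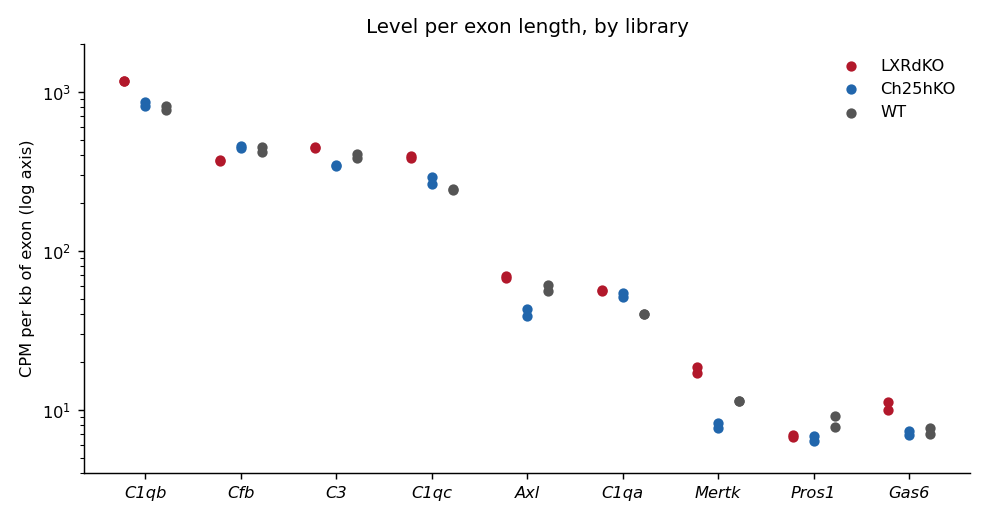
Level per exon length of the 9 genes in CPM per kb of exon (log axis), with 1 point per library in LXRdKO, Ch25hKO and WT, ordered by the WT mean. C1qb is highest in each genotype, between 772 and 1178, and Mertk, Pros1 and Gas6 are all below 19.

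In LXRdKO, 7 of the 9 genes were higher than in WT and 2 were lower. Over all genes tested, 16.4% were higher and 15.5% lower in this comparison, 31.8% in either direction. The median of the 9 log2 fold changes was 0.49, against 0.0026 over all genes. All C1q chains rose, as did Mertk, Axl, Gas6 and C3, while Cfb and Pros1 fell. The rise was 1.6-fold for C1qc, 1.56-fold for Mertk, 1.49-fold for C1qb, 1.44-fold for Gas6 and 1.4-fold for C1qa, and it was 1.17-fold for Axl and 1.14-fold for C3.

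In Ch25hKO, 2 of the 9 genes were higher than in WT, 4 were lower and 3 did not pass the test. Over all genes tested, 19.8% were higher and 19.5% lower, 39.3% in either direction. The median of the 9 was -0.046, against 0.0064 over all genes. C1qa and C1qc rose. Mertk, Axl, Pros1 and C3 fell, to 70.2%, 69.6%, 77.8% and 87.8% of the WT level. C1qb, Cfb and Gas6 did not pass.

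Set directly against Ch25hKO, LXRdKO was higher in 6 of the 9 genes and lower in 1, with 2 that did not pass. Over all genes tested, 19.3% were higher and 18.6% lower, 37.9% in either direction, and the median of the 9 was 0.48, against -0.013 over all genes. Each change against WT rests on the same pair of WT libraries, so those of the 2 knockouts are not independent. The WT libraries also differed from each other more than the libraries of either knockout did. Chi-square per degree of freedom between the libraries of a genotype was 5.21 in Ch25hKO and 4.32 in LXRdKO, and higher in WT. The fit pooled the spread of each gene over the genotypes, so standard errors and p-values against WT may be too small. With 2 libraries per group, a lack of overlap between genotypes was common. It held for 63.6% of all tested genes in LXRdKO against WT, 68.3% in Ch25hKO against WT and 71.2% in LXRdKO against Ch25hKO. Of the 9 genes it held for 9, 7 and 8, in the same order.

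**Figure D2:**
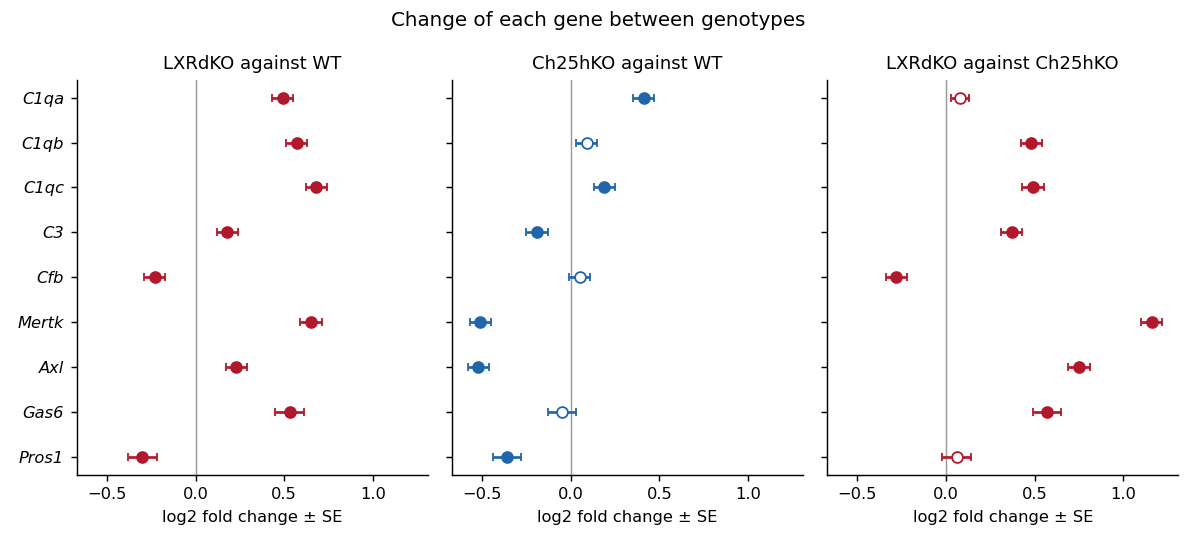
Log2 fold change ± standard error of each of the 9 genes (horizontal axis) in LXRdKO against WT, Ch25hKO against WT and LXRdKO against Ch25hKO, 2 libraries per group. Filled points passed the test. Mertk and Axl lie right of 0 in LXRdKO (0.65 and 0.23) and left of 0 in Ch25hKO (-0.51 and -0.52).

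C1qb, the B chain gene, had 1282 and 1280 CPM in LXRdKO, 891.4 and 942.8 CPM in Ch25hKO, and 884.7 and 839.5 CPM in WT. The LXRdKO libraries stood apart above the other 4, and the Ch25hKO and WT libraries lay close together without overlap. C1qb rose in LXRdKO by 0.57 ± 0.06 (edgeR adjusted p = 5.01e-07). In Ch25hKO it stood at 0.09 ± 0.06 (edgeR adjusted p = 0.224), a range of -0.02 to 0.20 at 2 standard errors. LXRdKO exceeded Ch25hKO by 0.48 ± 0.06 (edgeR adjusted p = 1.95e-06).

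C1qc, the C chain gene, had 460.8 and 474.5 CPM in LXRdKO, 316.9 and 351.0 CPM in Ch25hKO, and 294.1 and 290.5 CPM in WT. Here too the LXRdKO libraries were the highest, and Ch25hKO lay between the others. C1qc rose by 0.68 ± 0.06 in LXRdKO (edgeR adjusted p = 7.06e-08) and by 0.19 ± 0.06 in Ch25hKO (edgeR adjusted p = 0.012). Without Ch25hKO replicate 2, the call in Ch25hKO was lost (0.12, edgeR adjusted p = 0.244). LXRdKO exceeded Ch25hKO by 0.49 ± 0.06 (edgeR adjusted p = 1.99e-06).

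C1qa, the A chain gene, behaved differently from its neighbours in Ch25hKO. It had 57.83 and 58.54 CPM in LXRdKO, 53.26 and 56.81 CPM in Ch25hKO, and 41.5 and 41.6 CPM in WT. Both knockouts lay above WT, and the knockouts lay close to each other. C1qa rose by 0.49 ± 0.06 in LXRdKO (edgeR adjusted p = 2.85e-06) and by 0.41 ± 0.06 in Ch25hKO (edgeR adjusted p = 1.56e-05). The knockouts did not differ past the test (0.08 ± 0.05, edgeR adjusted p = 0.271, from -0.03 to 0.19 at 2 standard errors).

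Ratios within a library do not depend on scaling between libraries. For every 100 C1qb reads there were 4.51 and 4.57 C1qa reads in LXRdKO, 5.97 and 6.03 in Ch25hKO, and 4.69 and 4.96 in WT. Both Ch25hKO libraries were above all others in this ratio. C1qc reads per 100 C1qb reads were 36.0 and 37.1 in LXRdKO, 35.5 and 37.2 in Ch25hKO, and 33.2 and 34.6 in WT. The span over all 6 libraries was narrow, but both WT libraries were below all others. The annotated exon lengths of the chains are 1.04 kb for C1qa, 1.09 kb for C1qb and 1.2 kb for C1qc. C1qa reads were thus few for the length of the gene, and whether counting or amplification lowered them was not tested. Together the chains took 0.177% and 0.175% of all counts in LXRdKO, 0.131% and 0.137% in Ch25hKO, and 0.12% and 0.119% in WT. Macrophage markers were counted beside this: 8 of 10 rose and 1 fell in LXRdKO, where 16.4% of all genes rose and 15.5% fell, and 2 rose and 2 fell in Ch25hKO, close to the 19.8% and 19.5% of all genes. Their part in the C1q result was not tested.

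**Figure D3:**
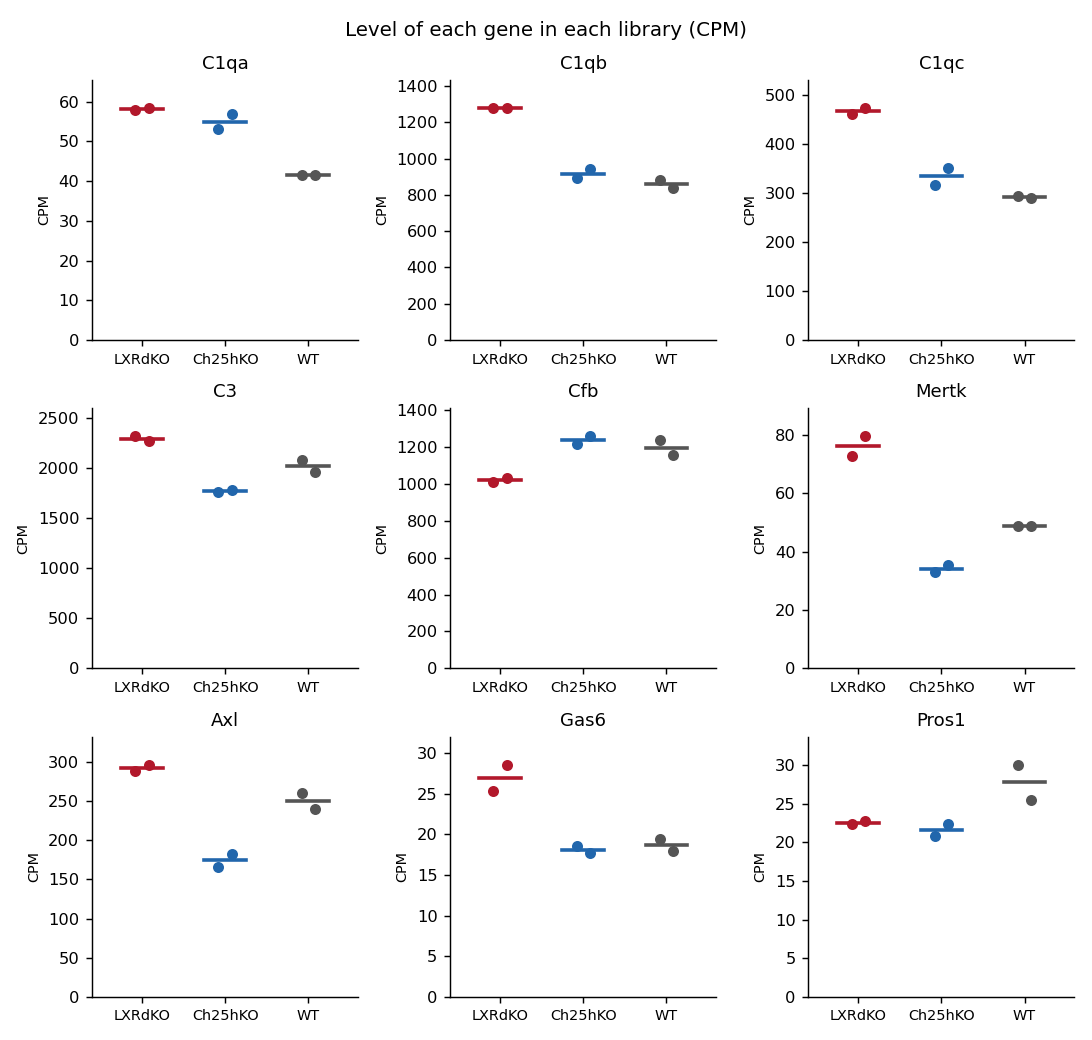
Level of each of the 9 genes in CPM, with 1 point per library and a bar at the mean of the 2 libraries, in LXRdKO, Ch25hKO and WT. Axes start at 0. The LXRdKO points of C1qa, C1qb, C1qc, Mertk, Axl, Gas6 and C3 lie above those of the other genotypes, for C1qa only just, and the WT points of Pros1 lie highest.

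C3 (ENSMUSG00000024164.15, chromosome 17, 57203970 to 57228136) had the highest counts of the 9 genes. It stood at 2321 and 2272 CPM in LXRdKO, 1763 and 1786 CPM in Ch25hKO, and 2082 and 1961 CPM in WT, with no overlap between genotypes. Its changes against WT were small and passed the test narrowly: 0.18 ± 0.06 in LXRdKO (edgeR adjusted p = 0.0199) and -0.19 ± 0.06 in Ch25hKO (edgeR adjusted p = 0.0141). The call in LXRdKO was lost in a fit of only those 4 libraries (0.18, edgeR adjusted p = 0.062). It was also lost without WT replicate 2 (0.13), Ch25hKO replicate 1 (0.18), LXRdKO replicate 1 (0.17) or LXRdKO replicate 2 (0.20), with an edgeR adjusted p between 0.0608 and 0.157. The call in Ch25hKO was lost without WT replicate 1 (-0.14), Ch25hKO replicate 1 (-0.19) or Ch25hKO replicate 2 (-0.20), with an edgeR adjusted p between 0.0575 and 0.112. The direct difference was larger, with LXRdKO above Ch25hKO by 0.37 ± 0.06 (edgeR adjusted p = 4.43e-05).

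Cfb, the factor B gene, had 1009 and 1030 CPM in LXRdKO, 1218 and 1260 CPM in Ch25hKO, and 1238 and 1158 CPM in WT. The LXRdKO libraries were the lowest, and those of Ch25hKO and WT overlapped. Cfb fell by 0.23 ± 0.06 in LXRdKO (edgeR adjusted p = 0.00405). Without LXRdKO replicate 1 this call was lost (-0.22, edgeR adjusted p = 0.069). In Ch25hKO Cfb was at 0.05 ± 0.06 (edgeR adjusted p = 0.527, from -0.06 to 0.16 at 2 standard errors). LXRdKO was below Ch25hKO, at -0.28 ± 0.06 (edgeR adjusted p = 0.000617). Cfb reads per 100 C3 reads were 43.5 and 45.3 in LXRdKO, 69.1 and 70.5 in Ch25hKO, and 59.5 and 59.0 in WT, so the ratio was lowest in LXRdKO and highest in Ch25hKO in every library.

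Mertk (ENSMUSG00000014361.5, chromosome 2, 128698956 to 128802894) showed the widest span between the knockouts of the 9 genes. It had 72.71 and 79.6 CPM in LXRdKO, 33.03 and 35.37 CPM in Ch25hKO, and 48.64 and 48.76 CPM in WT. The genotypes did not overlap, and WT lay between the knockouts. Mertk rose by 0.65 ± 0.06 in LXRdKO (edgeR adjusted p = 1.95e-07) and fell by 0.51 ± 0.06 in Ch25hKO (edgeR adjusted p = 3.63e-06). LXRdKO had 2.23 times the Mertk level of Ch25hKO (1.16 ± 0.06, edgeR adjusted p = 6.89e-11). Why an LXR-responsive gene was higher without both receptors was not tested. All 15 alternative settings kept the direction and the call of all 3 Mertk differences. Nr1h3, a gene targeted in LXRdKO, lies on chromosome 2 as well, at 91184061 to 91202834. The part of DNA linked to that allele in the Mertk values was not tested.

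Axl (ENSMUSG00000002602.16, chromosome 7, 25757273 to 25788705), the receptor that binds GAS6, had 288.8 and 296.7 CPM in LXRdKO, 165.9 and 182.8 CPM in Ch25hKO, and 260.9 and 239.8 CPM in WT. The order of the genotypes was that of Mertk, again without overlap, but LXRdKO lay nearer to WT. Axl rose by 0.23 ± 0.06 in LXRdKO (edgeR adjusted p = 0.00668), a call lost without LXRdKO replicate 2 (0.21, edgeR adjusted p = 0.086). Without WT replicate 2 the rise was 0.15. It fell by 0.52 ± 0.06 in Ch25hKO (edgeR adjusted p = 1.88e-06), and LXRdKO exceeded Ch25hKO by 0.75 ± 0.06 (edgeR adjusted p = 1.62e-08). Mertk reads per 100 Axl reads were 25.2 and 26.8 in LXRdKO, 19.9 and 19.4 in Ch25hKO, and 18.6 and 20.3 in WT. The ratio was thus highest in LXRdKO, while the Ch25hKO values fell within the WT range. Tyro3, the remaining TAM receptor gene, had 3 and 3 reads in LXRdKO, 5 and 6 in Ch25hKO, and 2 and 5 in WT, which was too few to be tested. Nr1h2, the other gene targeted in LXRdKO, shares chromosome 7 with Axl, at 44549616 to 44553951. The part of DNA linked to the Nr1h2 allele in the Axl values was not tested.

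The ligand genes separated. Gas6 (ENSMUSG00000031451.6, chromosome 8, 13465374 to 13494490) had 25.27 and 28.57 CPM in LXRdKO, 18.57 and 17.66 CPM in Ch25hKO, and 19.47 and 17.93 CPM in WT. Only the LXRdKO libraries stood apart, since those of Ch25hKO and WT overlapped. Gas6 rose by 0.53 ± 0.08 in LXRdKO (edgeR adjusted p = 3.59e-05). In Ch25hKO it was at -0.05 ± 0.08 (edgeR adjusted p = 0.672, from -0.20 to 0.11 at 2 standard errors). LXRdKO exceeded Ch25hKO by 0.57 ± 0.08 (edgeR adjusted p = 8.25e-06).

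Pros1 (ENSMUSG00000022912.8, chromosome 16, 62854307 to 62929346), the protein S gene, had 22.31 and 22.78 CPM in LXRdKO, 20.87 and 22.41 CPM in Ch25hKO, and 30.07 and 25.53 CPM in WT. WT was highest and its libraries were far apart, while the knockouts overlapped. Pros1 fell by 0.30 ± 0.08 in LXRdKO (edgeR adjusted p = 0.00529) and by 0.36 ± 0.08 in Ch25hKO (edgeR adjusted p = 0.00108). WT replicate 1 weighed on both: without it the values were -0.18 in LXRdKO (edgeR adjusted p = 0.0668) and -0.24 in Ch25hKO (edgeR adjusted p = 0.0112). The call in LXRdKO was also lost without LXRdKO replicate 1 (-0.29, edgeR adjusted p = 0.0632). The knockouts did not differ past the test (0.06 ± 0.08, edgeR adjusted p = 0.597, from -0.10 to 0.21 at 2 standard errors).

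For every 100 Pros1 reads there were 113 and 125 Gas6 reads in LXRdKO, 89.0 and 78.8 in Ch25hKO, and 64.7 and 70.2 in WT. Gas6 reads outnumbered Pros1 reads in LXRdKO only, but these ratios do not allow for gene length. Per kb of exon, Gas6 also stood above Pros1 in Ch25hKO, at 7.11 against 6.55 CPM. Set against the receptor, there were 34.8 and 35.9 Gas6 reads per 100 Mertk reads in LXRdKO, 56.2 and 49.9 in Ch25hKO, and 40.0 and 36.8 in WT. Pros1 reads per 100 Mertk reads were 30.7 and 28.6 in LXRdKO, 63.2 and 63.4 in Ch25hKO, and 61.8 and 52.4 in WT. Beside the fall of Mertk, Axl and Pros1 in Ch25hKO, 6 of 8 tested stromal markers rose and 1 fell there, and in LXRdKO 2 rose and 1 fell. Of 9 tested dendritic cell markers, 2 fell in LXRdKO and 3 in Ch25hKO, and 0 rose in either. Of 5 tested neutrophil markers, 4 fell in LXRdKO and 1 rose in Ch25hKO. Over all genes, 16.4% rose and 15.5% fell in LXRdKO, and 19.8% rose and 19.5% fell in Ch25hKO, and these marker lists are short. The part of these cells in the result was not tested.

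**Figure D4:**
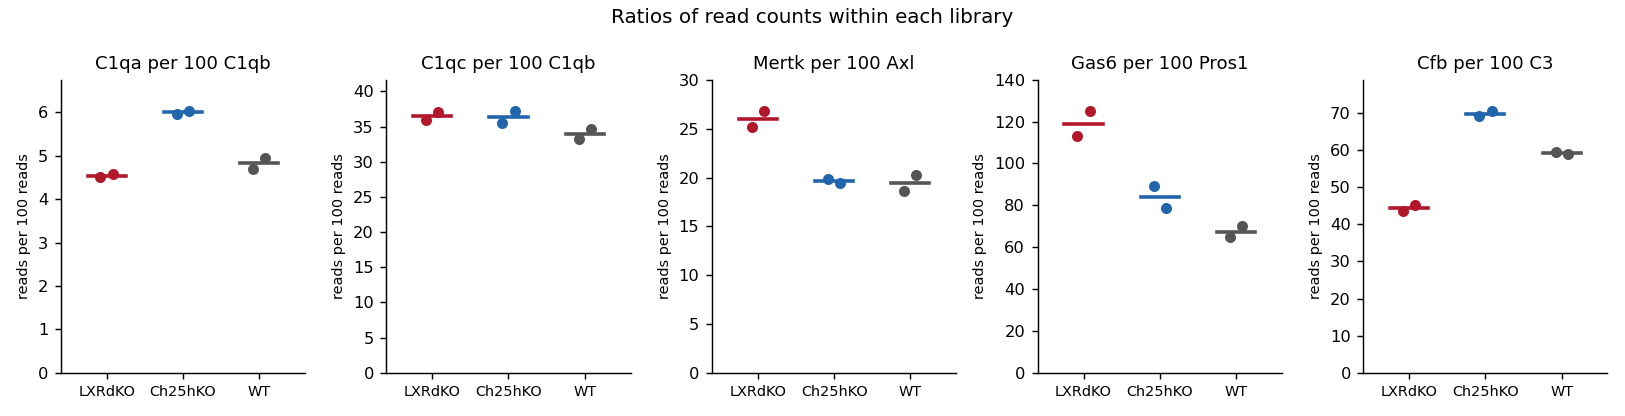
Read count ratios within each library (reads per 100 reads of the second gene), with 1 point per library and a bar at the mean, in LXRdKO, Ch25hKO and WT. Axes start at 0. C1qa per C1qb is highest in Ch25hKO (5.97 and 6.03), and Mertk per Axl and Gas6 per Pros1 are highest in LXRdKO.

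Other complement genes were read as a list of 44 in the table, of which 24 were tested. In LXRdKO 7 rose and 3 fell (median 0.05), where 16.4% of all genes rose and 15.5% fell. In Ch25hKO 5 rose and 3 fell (median 0.074), and the 20.8% that rose was near the 19.8% of all genes, of which 19.5% fell. Most of the list did not pass in either knockout. Without LXRdKO replicate 2, only 1 fell in LXRdKO. Directly compared, 5 were higher and 7 lower in LXRdKO than in Ch25hKO (median -0.11), or 20.8% and 29.2%. Over all genes these shares were 19.3% and 18.6%, and DESeq2 gave 4 of the list as lower. C3ar1, which encodes the receptor of the C3a fragment, had 2850 and 2937 CPM in LXRdKO, 1461 and 1547 CPM in Ch25hKO, and 2098 and 1950 CPM in WT. It rose by 0.52 ± 0.06 in LXRdKO (edgeR adjusted p = 3.58e-06) and fell by 0.43 ± 0.06 in Ch25hKO (edgeR adjusted p = 1.91e-05), the same order of genotypes as Mertk, Axl and C3.

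C5ar1, the gene of the C5a receptor, was higher in both knockouts, with 378.6 and 392.3 CPM in LXRdKO, 444.3 and 433.7 CPM in Ch25hKO, and 250.1 and 255.5 CPM in WT. It rose by 0.61 ± 0.05 in LXRdKO and by 0.80 ± 0.05 in Ch25hKO (edgeR adjusted p = 8.76e-08 and 2.18e-09). Cd59a, an inhibitor of the membrane attack complex, fell by 1.54 ± 0.16 in LXRdKO and by 0.99 ± 0.15 in Ch25hKO (edgeR adjusted p = 7.47e-07 and 3.97e-05). It had 1.96 and 2.217 CPM in LXRdKO, 2.583 and 3.555 CPM in Ch25hKO, and 5.897 and 6.285 CPM in WT. Cfp, the gene of properdin, which stabilises the alternative pathway convertase, rose by 0.36 ± 0.05 in LXRdKO (edgeR adjusted p = 3.3e-05) and by 0.18 ± 0.05 in Ch25hKO (edgeR adjusted p = 0.00959). The second of these calls was lost without either Ch25hKO library (0.19 and 0.16). Fcna, a ficolin gene of the lectin pathway, rose by 0.51 ± 0.08 in Ch25hKO (edgeR adjusted p = 0.000105). In LXRdKO Fcna rose by 0.30 ± 0.08 (edgeR adjusted p = 0.013), a call lost by DESeq2 and without WT replicate 2 (0.20) or either LXRdKO library (0.31 and 0.28). The terminal pathway genes C6, C7, C8a, C8b and C9 and the protease genes Cfd and Cfi had between 0 and 13 reads per library.

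The list of other clearance genes held 47 symbols, of which 41 were tested. In LXRdKO 11 rose and 9 fell (median 0.0021), where 16.4% of all genes rose and 15.5% fell. The count that fell was 4 without LXRdKO replicate 1 and 5 without LXRdKO replicate 2. In Ch25hKO 7 rose and 16 fell (median -0.068), or 17.1% and 39.0%, against 19.8% and 19.5% of all genes. Directly compared, 17 were higher and 5 lower in LXRdKO than in Ch25hKO (median 0.1), or 41.5% and 12.2%, against 19.3% and 18.6% of all genes. The lower count was 10 without either WT library and 2 or 3 without any one of the others.

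Among receptors for phosphatidylserine, Cd300lb rose by 1.18 ± 0.07 and Timd4 by 0.81 ± 0.11 in LXRdKO (edgeR adjusted p = 1.51e-09 and 2.14e-05). Neither passed in Ch25hKO, at 0.05 ± 0.08 and 0.22 ± 0.12. Cd300lf and Havcr2 fell by 1.13 ± 0.06 and 1.39 ± 0.09 in Ch25hKO (edgeR adjusted p = 2.31e-10 and 2.26e-09). They also fell in LXRdKO, by 0.39 ± 0.06 and 0.40 ± 0.08 (edgeR adjusted p = 5.92e-05 and 0.00142). The scavenger receptor gene Cd36 fell in both, by 0.60 ± 0.05 in LXRdKO and 0.49 ± 0.05 in Ch25hKO (edgeR adjusted p = 6.24e-08 and 4.98e-07). Tgm2, a transglutaminase gene that takes part in engulfment, rose by 0.25 ± 0.05 in LXRdKO (edgeR adjusted p = 0.000851) and fell by 0.74 ± 0.05 in Ch25hKO (edgeR adjusted p = 5.19e-09). Scarb1, a lipoprotein receptor that also binds phosphatidylserine, rose 2.38-fold in Ch25hKO (edgeR adjusted p = 9.04e-10). In LXRdKO Scarb1 fell by 0.26 ± 0.08 (edgeR adjusted p = 0.0239), a call lost by DESeq2 and without either LXRdKO library (-0.25 and -0.27), and LXRdKO stood below Ch25hKO at -1.51 ± 0.08 (edgeR adjusted p = 5.75e-11).

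**Figure D5:**
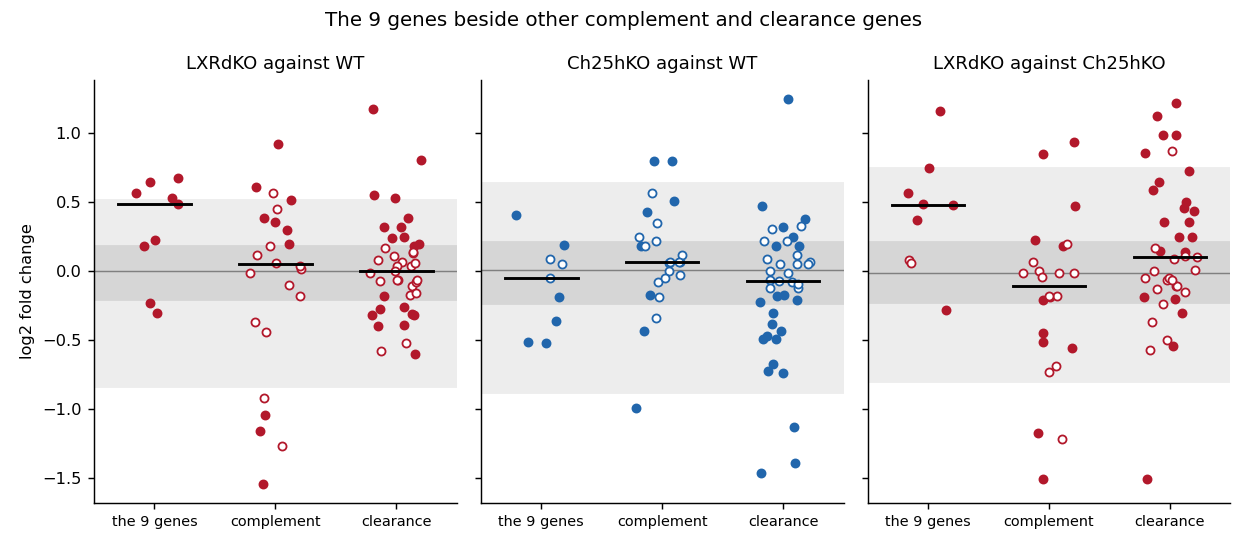
Log2 fold changes (vertical axis) of the 9 genes, of 24 other complement genes and of 41 other clearance genes in LXRdKO against WT, Ch25hKO against WT and LXRdKO against Ch25hKO. Each point is a gene, filled where it passed the test; the black line is the median of the list, and grey bands hold 50% and 90% of all tested genes. The median of the 9 genes is 0.49 in LXRdKO against WT, above the other lists (0.05 and 0.0021).

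Genes with the most similar profile over the 6 libraries were found by the root mean square distance of log2 CPM, each gene centred on its own mean, among genes of at least 5 CPM on average. For the mean of the C1q genes, the nearest of 8138 were Crip1 (0.037), Zfp414 (0.039), Gng12 (0.040), the Wnt receptor gene Fzd1 (0.041) and Slc31a2 (0.042). In Ch25hKO this mean joins unlike changes against WT, 0.41 for C1qa, 0.09 for C1qb and 0.19 for C1qc. For Mertk, the nearest of 8140 were Slc29a3, a nucleoside transporter gene of lysosomes (0.029), I830077J02Rik (0.050), 1300002K09Rik (0.061), Slamf9 (0.064) and Entpd1, the gene of the nucleotide-degrading enzyme CD39 (0.067). For Axl they were Frmd4a (0.027), Tmem229b (0.032), the sialomucin gene Cd164 (0.034), Minpp1 (0.037) and Gm5431 (0.039). The libraries fall into 3 genotypes, so these distances mostly describe the order of 3 means.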

How the data were processed

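A single table of raw counts was deposited, by gene symbol and library, without normalization. Reads that passed a quality filter were aligned by STAR to mm10, per the series' design; the submitters' processing notes name STAR 2.3.0, CASAVA and HTSeq. Per the labels' protocols, an Ovation system amplified the RNA, so reads are not independent molecules. No source used here gives the annotation, counting mode or strand setting. Totals ran from 41650513 to 45872964 counts per library.

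All 6 libraries were fitted in edgeR 4.0.16 (R 4.3.3) with filterByExpr, TMM scaling, 1 mean per genotype and robust quasi-likelihood dispersions, which left 3 residual degrees of freedom. CPM used TMM-scaled library sizes. A standard error is the log2 fold change divided by the square root of the F statistic. Alternatives were RLE and upper-quartile scaling, DESeq2 1.42.0, limma-voom (limma 3.58.1), no low-count filter, a filter keeping genes with 5 CPM or more in 2 or more libraries, fits restricted to the compared genotypes, a replicate block, a crossed block added after the data were seen, and each library left out. Where a group was left with 1 library, it was assumed to vary like the others.

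The main fit did not pair libraries by replicate number. Deviations within genotype correlated at -0.322 between Ch25hKO and WT, and whether libraries were paired in some other way was not tested. The genes and lists were chosen with earlier results of these data known. The text names the 9 genes, in each comparison with WT the 4 genes of lowest p in each of 2 further lists, the 5 nearest profiles, and Tyro3 and some other genes of low count, picked after their values were seen. One result that this rule names is not reported here. The macrophage markers and the clearance list share 2 genes.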

Additional observations from a re-analysis of the deposited data

How the results depend on the processing

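Of the 405 values of the 9 genes under 15 alternatives, 390 kept their direction and call, 13 lost the call and 2 turned sign. Those 2 had not passed the test: in Ch25hKO, Cfb was at -0.01 without WT replicate 2 and Gas6 at 0.01 without WT replicate 1, in ranges of -0.01 to 0.10 and -0.12 to 0.01 with 1 library left out. Cd300lb in Ch25hKO, which had not passed either, was at -0.02 without WT replicate 2 and -0.04 without Ch25hKO replicate 2, in a range of -0.04 to 0.12. Lost calls of the 9 genes are given beside their values, and those of C3 against WT were lost most often; the cause was not tested.

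Leaving out 1 library gave 1292 to 2097 genes higher and 1198 to 2232 lower in LXRdKO against WT (2116 and 1999 with all), 1501 to 2478 higher and 1758 to 2750 lower in Ch25hKO against WT (2557 and 2516), and 1712 to 2930 higher and 1504 to 2828 lower in LXRdKO against Ch25hKO (2492 and 2406). Of the 9 genes, 5 to 7 were higher and 0 to 2 lower in LXRdKO against WT, 1 to 2 higher and 3 to 4 lower in Ch25hKO against WT, and 6 higher and 1 lower throughout in LXRdKO against Ch25hKO. Of these, 0 were lower in LXRdKO without LXRdKO replicate 1 and 1 without WT replicate 1, and 1 was higher in Ch25hKO without Ch25hKO replicate 2. The counts over all genes against WT were lowest without LXRdKO replicate 1 (1292 and 1198; 1314 and 1265 without LXRdKO replicate 2) and, for genes higher in Ch25hKO, without Ch25hKO replicate 1 (1501). Genes lower in LXRdKO than in Ch25hKO numbered 1504 without LXRdKO replicate 2 and 1585 without Ch25hKO replicate 1. Other complement genes lower in LXRdKO than in WT came to 1 to 3, other clearance genes to 4 to 11. Against Ch25hKO, other complement genes came to 3 to 5 higher and 3 to 7 lower, and other clearance genes to 2 to 10 lower. DESeq2 gave 1 other complement gene lower in LXRdKO than in WT (3 by edgeR). Against Ch25hKO it gave 4 other complement and 3 other clearance genes lower (7 and 5 by edgeR). The filter of at least 5 CPM, which left 13 other complement genes, gave 4, and the fit of only the libraries compared gave 10 other clearance genes.

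Replicate numbers gave correlations of within-genotype deviations of -0.0611 (LXRdKO and WT), -0.322 (Ch25hKO and WT) and 0.122 (LXRdKO and Ch25hKO). With the replicate block, counts for the 9 genes did not change: 7 higher and 2 lower in LXRdKO, 2 higher and 4 lower in Ch25hKO. Over all genes the replicate block gave 1913 higher and 1843 lower in LXRdKO, and 2372 higher and 2393 lower in Ch25hKO. With the WT numbers crossed, these counts were 2335, 2193, 2730 and 2675, each above the count of the main fit. The lowest count of the 9 genes in any library was 770 reads, while Tyro3, C6, C7, C8a, C8b and C9 had too few reads to be tested.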
